A study of Homo sapiens with 12 samples.

Results

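The genes described here were 9 transcriptional targets of the tumour suppressor p53 other than the cell cycle inhibitor p21, namely MDM2, GADD45A, RRM2B, ZMAT3, BAX, FAS, TP53INP1, TP53I3 and FDXR. They were chosen by name, by a rule that uses no measured value, although earlier results of these data were known at the time. Each had a single row among the 34687 gene rows of the deposited expression table. The cells were HCT116, a colon cancer line with normal p53, and PANC1, a pancreatic ductal cancer line with mutant p53. Each line was treated with 0.05% DMSO (the solvent and control), with 10 uM ICG-001 or with 10 uM C646, and was collected after 12 or 96 h. This gave 12 groups, and each had 1 column of Illumina HumanHT-12 v4 signal, a fluorescence intensity on a linear scale that the authors had averaged over 2 arrays, or over 3 arrays for PANC1 with ICG-001 at 12 h. The study asked whether a block of the histone acetyltransferase CBP and a block of CBP together with p300 change different genes. ICG-001 binds CBP and keeps it from β-catenin, whereas C646 inhibits the catalytic site of CBP and p300.

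p53 is kept low in unstressed cells by MDM2, the ubiquitin ligase that marks it for destruction and that p53 itself induces. DNA damage and other stresses release p53, which binds paired half-sites in DNA, recruits CBP and p300 and switches on genes that halt the cell cycle, repair DNA, change metabolism or start cell death. CBP and p300 also acetylate p53, so an inhibitor of their catalytic site such as C646 could meet this pathway at the co-activator. Whether ICG-001 changes what CBP does at p53 was not tested. Mutant p53 of the kind found in many tumours binds these elements poorly. Because each p53 status came from a single line, p53 status and cell line cannot be told apart in what follows.

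Stretches that resemble the p53 response element are shown first, because such an element is what the 9 genes are thought to share. The RefSeq promoter windows, assembly GRCh38.p14, hold 250 bases before each annotated start and 50 after it, 300 in all, and 6 of the 9 genes had at least 1 window. Both strands were searched for the 20 bases closest to the element, which is made of a pair of half-sites with no base between them. Capitals mark the core of each half-site, a C and a G with any 2 bases between them, and the order follows the number of mismatches to the published degenerate consensus.
MDM2: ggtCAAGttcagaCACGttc
FAS: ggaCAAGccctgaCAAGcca
FDXR: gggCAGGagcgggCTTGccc
ZMAT3: gggCCTGctccgcCAAGcac
BAX: aggCAGGtgcggtCACGtga

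The MDM2 stretch lay at chr12:68808923-68808942 on the plus strand, at position -94 from its annotated start, with 2 mismatches. The FAS stretch lay at chr10:88991309-88991328 on the plus strand, at position -122, also with 2 mismatches. A stretch at least as close was present in 0.359% of the 27305 genes with windows. Both stretches were inside the annotated span of their gene, upstream of an internal start.

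The FDXR stretch, at chr17:74872996-74873015 on the minus strand, began at position -21 and had 3 mismatches, which 1.37% of genes matched or bettered. For ZMAT3 the closest stretch was chr3:179071873-179071892 on the minus strand, with 4 mismatches against 4.92% of genes. The BAX stretch, chr19:48954769-48954788 on the plus strand, had 6 mismatches, and 29.0% of genes had one as close. The closest stretch of TP53I3 had 10 mismatches, as near as that of 72.8% of genes, and is not printed. These windows therefore held a near match for MDM2, FAS and FDXR and none that stood out for BAX or TP53I3. MDM2 had 4 windows, FAS 3, FDXR and ZMAT3 2 each and BAX and TP53I3 1 each, so the genes with more windows had more chances of a match. GADD45A, RRM2B and TP53INP1 had no entry. A match is a description of the letters and says nothing about binding.

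The column medians of the signal lay between 139.05 and 139.64 in HCT116 and between 132.7 and 133.5 in PANC1, most of it background, since none was subtracted. A gene was taken as above the detection limit where its signal passed the peak of the column's log2 distribution by a fixed multiple of the SD of the values below that peak, which was a signal of 144.6 to 144.8 in HCT116 and of 136.2 to 139.8 in PANC1. A column held 14909 to 16070 genes that passed. Sorted log2 values differed by 0.0037 to 0.0093 on average between columns of a line and by 0.063 to 0.066 between lines, so levels were compared within a line and the lines only through their ratios to DMSO. The epithelial markers EPCAM, CDH1, KRT8, KRT18 and KRT19 and the mesenchymal marker VIM were above the limit in all 6 columns of both lines, so they do not tell the lines apart by detection. CDH2 passed in all 6 PANC1 columns and ZEB1 in 5, and neither did in HCT116. The ductal keratin KRT7 passed the limit in all 6 PANC1 columns (highest signal 185) and also in 4 HCT116 columns (highest signal 389). The intestinal markers VIL1, CDX1 and LGALS4 were above it in 0 of the 6 HCT116 columns, and LGALS4 was in 5 PANC1 columns. Of 7 markers of blood, endothelial and stromal cells, COL1A1 was above the limit in all 12 columns, COL3A1 in 5 PANC1 columns and the others in none. No value of a single array was used, so no column has an SD. Genes under the limit in every column of a line give the lower bound of the measurement error, and the SD of their log2 ratios was 0.070 to 0.074 in HCT116 and 0.063 to 0.073 in PANC1.

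**Figure D1:**
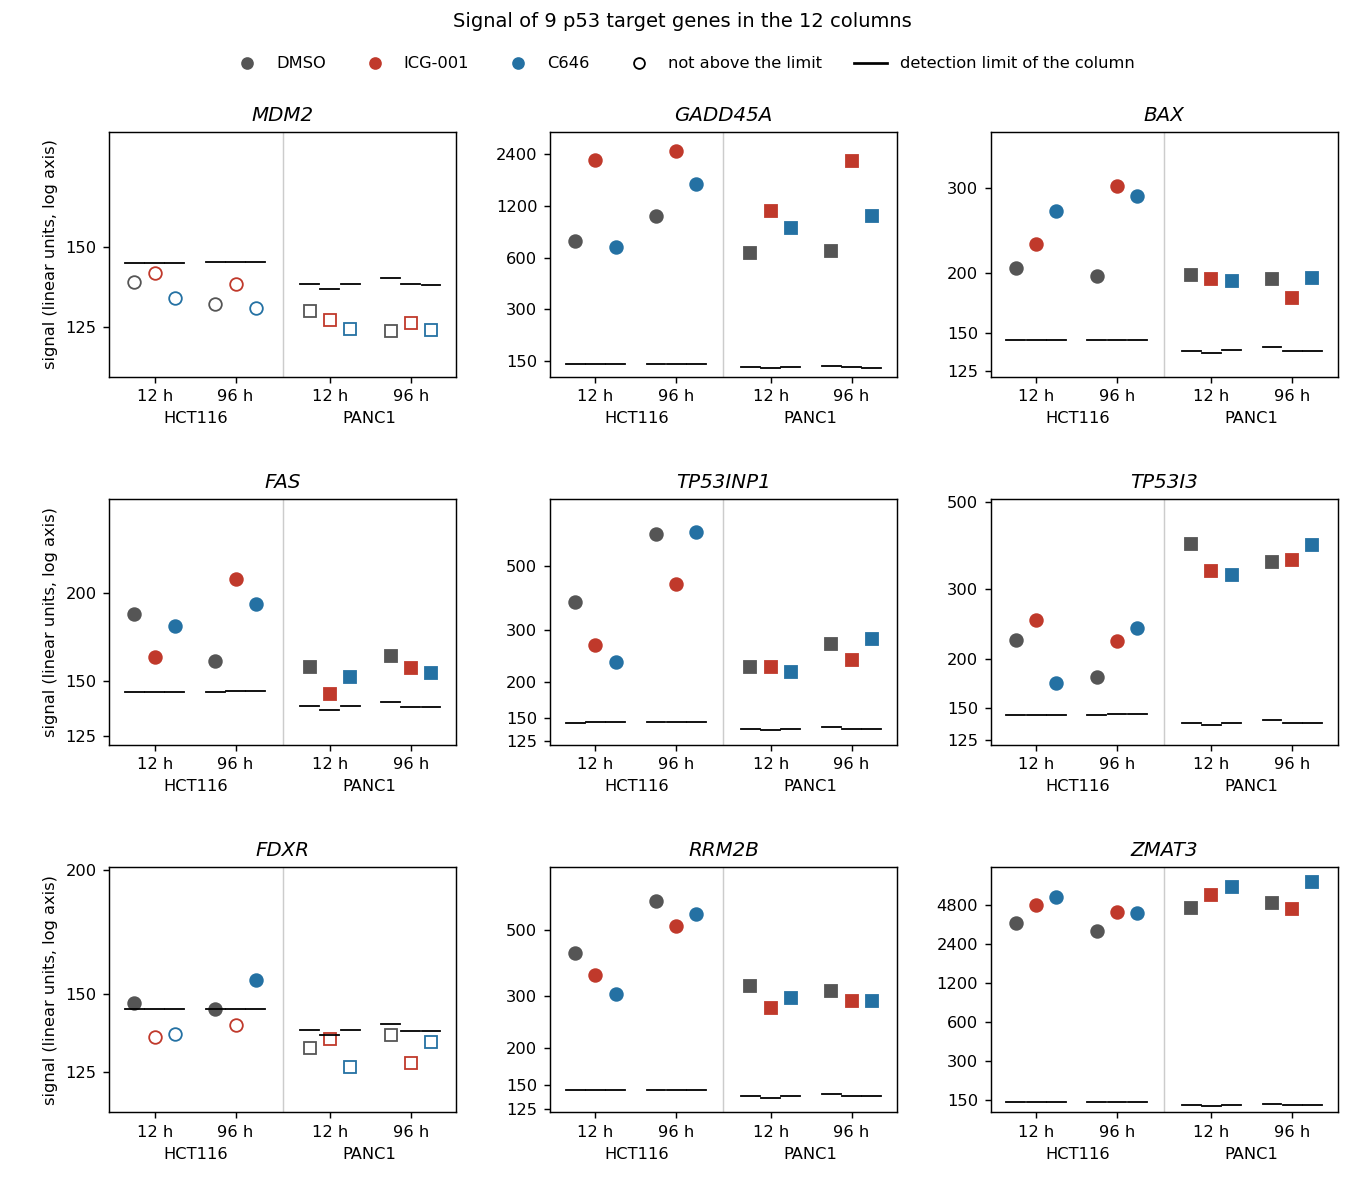
Signal of the 9 p53 target genes (log axis, linear signal units) in the 12 columns, with HCT116 as circles on the left of each panel and PANC1 as squares on the right, coloured by treatment. Short black lines mark the detection limit of each column and open symbols are not above it; GADD45A with ICG-001 stands over DMSO in all 4 line and time pairs, and MDM2 lies under the limit in all 12 columns.

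Of the 9 genes, 8 passed the limit in some column of HCT116 and 7 in PANC1. GADD45A was higher with ICG-001 in both lines and at both times. BAX in HCT116 had ratios over DMSO that ran from 1.12-fold to 1.54-fold, of which that with ICG-001 at 96 h passed the fold, and the gene moved by no more than 1.10-fold in PANC1. ZMAT3 rose with C646 in the fit over both lines given below. TP53INP1 and RRM2B had lower signals with ICG-001 in HCT116 than with DMSO at the same time, and both were set apart more by time than by drug. RNA came from whole cultures, so fewer expressing cells and less RNA per cell cannot be told apart.

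A pair of columns was called past the fold for a gene when their ratio reached 1.5 up or down and either of them was above the limit. In HCT116 with ICG-001 at 12 h, 1 of 8 members (GADD45A) was higher and 0 were lower, where 4.94% of all genes compared were higher and 4.26% lower. At 96 h, 2 of 8 (GADD45A and BAX) were higher and 0 lower, against 5.28% and 5.26% of all genes. C646 at 12 h left 1 of 8 (ZMAT3) higher and 1 (TP53INP1) lower, against 2.68% and 1.58%. C646 at 96 h left 1 of 8 (GADD45A) higher and 0 lower, against 1.95% and 1.26%. In all, 6 ratios of HCT116 passed the fold, 3 of them those of GADD45A.

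Of the 7 members above the limit in PANC1, GADD45A alone passed the fold against DMSO, in 3 of 4 comparisons. ICG-001 left 1 of 7 higher and 0 lower at 12 h, against 2.23% and 0.344% of all genes. The same drug at 96 h again gave 1 higher and 0 lower, against 4.02% and 3.72%. C646 at 12 h gave 0 in either direction, against 4.13% and 2.79%, and at 96 h 1 higher and 0 lower, against 2.92% and 1.23%. With 7 or 8 genes a single one already exceeds most of these shares, so the counts say little about the genes as a group and each is described on its own.

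**Figure D2:**
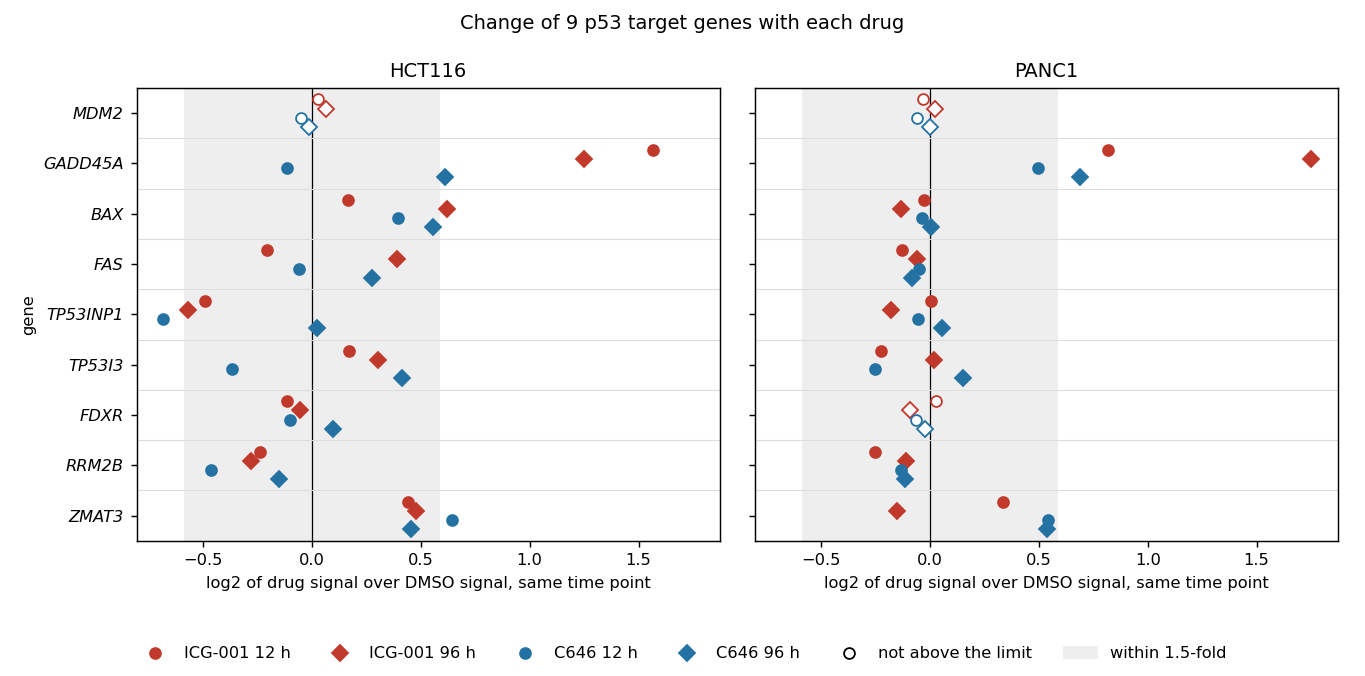
Log2 ratio of the drug column over the DMSO column of the same line and time for each of the 9 genes, with circles for 12 h, diamonds for 96 h and open symbols where neither column was above the limit. The grey band is within 1.5-fold; GADD45A reaches 1.57 in HCT116 and 1.75 in PANC1 with ICG-001, and the BAX points lie above 0 in HCT116 and between -0.13 and 0.01 in PANC1.

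Among the regulators of p53, MDM2 was not above the limit in any column. Its signal ran from 130.3 to 141 in HCT116, where the highest value was that with ICG-001 at 12 h, and from 123.9 to 129.6 in PANC1. The highest over the lowest signal was 1.08-fold and 1.05-fold, so no change of MDM2 could be read in either direction. The table gives 1 value per gene and not the probe behind it, so it is unknown which MDM2 transcripts this signal would read.

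GADD45A codes for a stress sensor that binds PCNA and cyclin-dependent kinases and takes part in growth arrest and DNA repair. In HCT116 its signal was 749.8 with DMSO, 2221 under ICG-001 and 692 under C646 at 12 h. At 96 h it was 1055 with DMSO, 2508 with ICG-001 and 1610.3 with C646. PANC1 gave 637 with DMSO, 1121 under ICG-001 and 898 under C646 at 12 h, and 654, 2202 and 1055 at 96 h. Both ICG-001 columns of each line exceeded all of its other columns.

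With ICG-001 the GADD45A signal was thus 2.96-fold that of DMSO at 12 h and 2.38-fold at 96 h in HCT116. The corresponding ratios in PANC1 were 1.76-fold and 3.37-fold, so the wider gap was the earlier one in HCT116 and the later one in PANC1. C646 left the signal within the fold at 12 h, with log2 ratios of -0.12 in HCT116 and 0.50 in PANC1, and reached 1.53-fold in HCT116 and 1.61-fold in PANC1 at 96 h. Set directly against C646, ICG-001 gave 3.21-fold more GADD45A signal in HCT116 at 12 h, 1.56-fold more at 96 h and 2.09-fold more in PANC1 at 96 h.

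RRM2B is the p53-inducible small subunit of ribonucleotide reductase, which supplies nucleotides for DNA repair. Its HCT116 signals were 418 with DMSO, 354 under ICG-001 and 304 under C646 at 12 h. At 96 h they were 628, 517 and 567 in the same order. In PANC1 they were 325, 273 and 296 at 12 h and 313, 289 and 289 at 96 h. Each of the 8 drug columns lay under its DMSO column, by log2 ratios from -0.11 to -0.46, and 0 of them passed 1.5-fold.

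ZMAT3 codes for a zinc finger protein that binds RNA and regulates splicing and RNA stability downstream of p53. In HCT116 its signal was 3538 with DMSO, 4800 under ICG-001 and 5530.2 under C646 at 12 h, and 3068, 4279 and 4212 at 96 h. PANC1 signals were 4559.7, 5754 and 6628 at 12 h and 5013, 4515 and 7286 at 96 h. In HCT116 both DMSO columns were the lowest of the 6, and in PANC1 both C646 columns were the highest. C646 gave log2 ratios of 0.64 and 0.46 in HCT116 and of 0.54 at both times in PANC1, of which the first passed the fold at 1.56-fold. With quantile normalization over all 12 columns that ratio was 0.57, under the fold, and both PANC1 ratios were 0.66, over it. ICG-001 gave 0.44 and 0.48 in HCT116, and 0.34 followed by -0.15 in PANC1.

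BAX, a BCL2 family protein that permeabilises the outer mitochondrial membrane, and FAS, the cell surface death receptor, stand for the 2 routes to apoptosis. In HCT116 the BAX signal was 204 with DMSO, 229.6 under ICG-001 and 269 under C646 at 12 h. At 96 h it was 197, 302 and 289. In PANC1 it was 197, 194 and 192 at 12 h and 194, 177 and 195 at 96 h. All 4 drug columns of HCT116 were thus above both of its DMSO columns, and the log2 ratios at 12 and 96 h were 0.17 and 0.62 for ICG-001 and 0.39 and 0.56 for C646. The PANC1 ratios ran from -0.13 to 0.01.

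FAS lay close to the limit. Its HCT116 signals were 187, 162 and 179.6 with DMSO, ICG-001 and C646 at 12 h, and 159.8, 209.7 and 193 at 96 h. In PANC1 they were 157, 144 and 152 at 12 h and 163, 156 and 154 at 96 h. In HCT116 both drug columns were below DMSO at 12 h and above it at 96 h, where the log2 ratios were 0.39 with ICG-001 and 0.27 with C646, and none passed the fold. Since background is a large part of a signal this low, ratios of FAS, BAX and TP53I3 understate their changes.

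TP53INP1 codes for a nuclear protein that promotes p53 phosphorylation, autophagy and cell death. Its signal in HCT116 was 377 with DMSO, 268 under ICG-001 and 235 under C646 at 12 h, and 643, 433 and 653 at 96 h. In PANC1 it was 224, 225 and 216 at 12 h and 269, 238 and 279.6 at 96 h. Log2 ratios to DMSO in HCT116 were -0.49 and -0.57 for ICG-001. For C646 they were -0.68 at the earlier time and 0.02 at the later one, so this drug left the gene 1.61-fold lower at first and level with DMSO afterwards.

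TP53I3 codes for a quinone oxidoreductase linked to oxidative stress and apoptosis. Signals in HCT116 were 224 with DMSO, 252 under ICG-001 and 174 under C646 at 12 h, and 180.1, 223 and 239.8 at 96 h. In PANC1 they were 390.3, 334 and 327 at 12 h and 351, 356 and 389.6 at 96 h. The C646 ratio changed sign with time in both lines, from -0.37 to 0.41 in HCT116 and from -0.25 to 0.15 in PANC1, and 0 of 8 ratios passed the fold.

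FDXR, the mitochondrial ferredoxin reductase, was above the limit in 3 of 6 HCT116 columns and 0 of 6 PANC1 columns. These were DMSO at 12 h (146.7), DMSO at 96 h (144.8, over a limit of 144.7) and C646 at 96 h (155.03). The other HCT116 signals were 135.6 under ICG-001 and 136.6 under C646 at 12 h and 139.3 with ICG-001 at 96 h. The PANC1 signals ran from 126.4 to 136.1. At this signal no difference could be told from background.

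Time in culture alone set 2 members apart. Between the DMSO columns of HCT116, 96 h over 12 h, 2 of 8 members passed the fold, TP53INP1 at 1.71-fold and RRM2B just over the threshold, where 3.21% of all genes did so in either direction. In PANC1 it was 0 of 7, against 1.34% of all genes. The 2 genes, singled out after their values were seen, were also higher at 96 h than at 12 h under both drugs in HCT116, with log2 differences for TP53INP1 of 0.77 in DMSO, 0.69 in ICG-001 and 1.48 in C646 and for RRM2B of 0.59, 0.54 and 0.90. In PANC1 the differences of TP53INP1 were 0.26, 0.08 and 0.37 and those of RRM2B -0.06, 0.09 and -0.04. By the study's methods the 96 h cultures started less dense than the 12 h cultures and were passaged, so time cannot be told apart from these conditions. The 12 h and 96 h DMSO columns are also the denominators of the drug ratios.

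The repeat of each drug effect over lines and times gave the one estimate of error in these data. In a limma fit to log2 signal of all 12 columns, with the 4 line and time pairs as a block, the spread is how much an effect differs between pairs, not between replicate cultures, with 6 residual degrees of freedom. Adjustment was over the 20727 genes that passed the limit in any of the columns. These held 8 members, all but MDM2. The 3 contrasts each called 1 member at an adjusted p under 0.05.

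With ICG-001 GADD45A rose by a log2 change of 1.35 (SE 0.19, adjusted p = 0.0045), the only 1 of 8 members called, where 13.4% of all genes were called. The call held without any one of the 4 pairs, with adjusted p values from 0.0084 to 0.031, where 4.51% to 9.4% of all genes were called. Without the PANC1 96 h columns 2 of 8 members were called, against 6.95% of all genes. In the fit over all 4 pairs RRM2B had a log2 change of -0.22 (SE 0.07, adjusted p = 0.065). TP53INP1 had one of -0.31 there (SE 0.14, adjusted p = 0.18), and neither was called.

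With C646 ZMAT3 rose by 0.55 (SE 0.11, adjusted p = 0.013), 1 of 8 members called against 10.2% of all genes. That call was lost without the HCT116 12 h columns (0.51, adjusted p = 0.075) and without the PANC1 12 h columns (0.55, adjusted p = 0.096). In these fits, with 4 residual degrees of freedom, the share of all genes called was also lower, at 5.88% and 3.46%. The change of ZMAT3 with ICG-001 was 0.28 (adjusted p = 0.13). RRM2B with C646 had a log2 change of -0.21 (SE 0.07, adjusted p = 0.083).

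Between the drugs, GADD45A was higher with ICG-001 than with C646 by a log2 difference of 0.93 (SE 0.19, adjusted p = 0.026), again 1 of 8 members against 8% of all genes. This call was lost without the HCT116 12 h columns (0.67, adjusted p = 0.089), without the HCT116 96 h columns (1.02, adjusted p = 0.060) and without the PANC1 96 h columns (0.88, adjusted p = 0.11). The share of all genes called fell as well, to 1.76%, 4.56% and 1.51% in the same order, with 4 residual degrees of freedom. ZMAT3 differed by -0.27 (SE 0.11, adjusted p = 0.17). The other 6 members differed between the drugs by -0.14 to 0.08 with SE from 0.05 to 0.14, which leaves room for differences of that order.

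Taken column by column, the ICG-001 to C646 ratio passed 1.5-fold for 1 of 7 members in HCT116 at 12 h (GADD45A, where 6.41% of all genes passed) and for 2 of 8 at 96 h (GADD45A, and TP53INP1 at -0.59, against 6.71%). In PANC1 it was 0 of 7 at 12 h, against 2.59%, and 2 of 7 at 96 h (GADD45A, and ZMAT3 at -0.69, against 7.08%). GADD45A was on the ICG-001 side each time, and TP53INP1 and ZMAT3 on the C646 side.

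**Figure D3:**
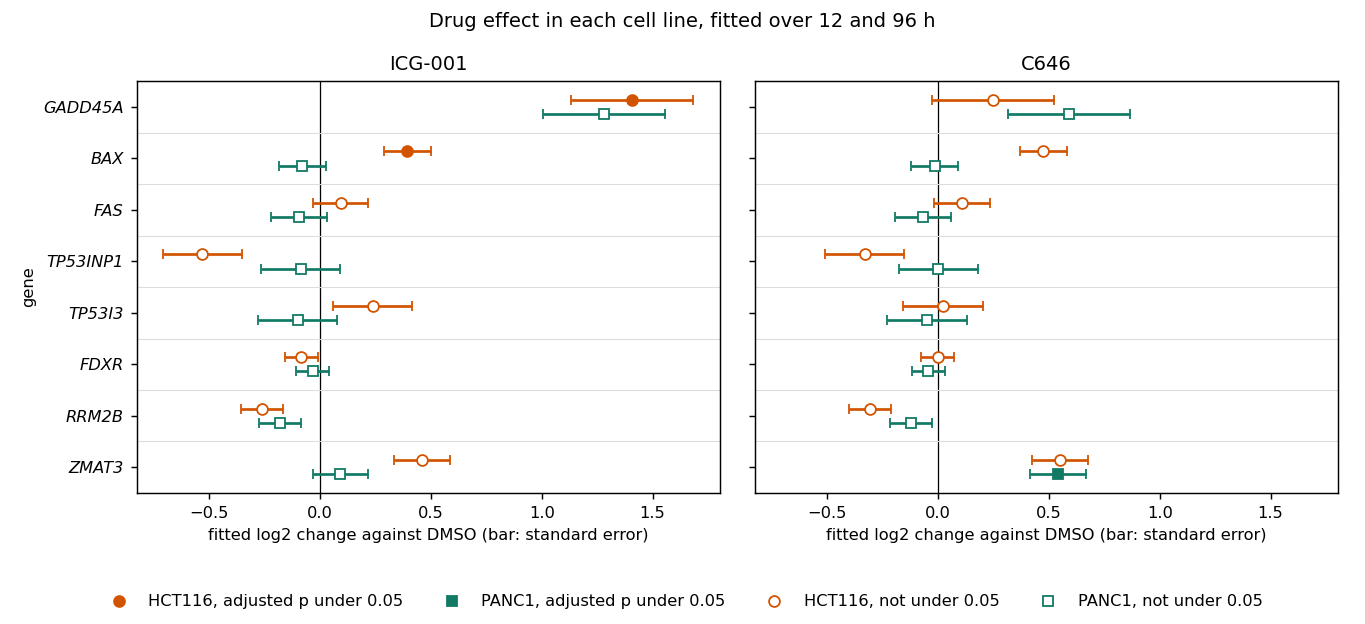
Drug effect on the 8 fitted p53 target genes in each line from the limma fit over 12 and 96 h, as log2 change against DMSO with its standard error. Filled symbols have an adjusted p under 0.05: GADD45A and BAX with ICG-001 in HCT116 and ZMAT3 with C646 in PANC1.

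When each line had its own drug effect, with its 2 time points as the only repeats and 4 residual degrees of freedom, 2 of 8 members were called with ICG-001 in HCT116, where 14.1% of all genes were. GADD45A rose by 1.41 (SE 0.28, adjusted p = 0.017) and BAX by 0.39 (SE 0.11, adjusted p = 0.049). The BAX call was lost without the filter on dim genes (adjusted p = 0.068), where 7.45% of all genes were called. C646 in HCT116 called 0 of 8, against 3.66% of all genes, and 3 members had an unadjusted p under 0.05. Among them BAX had a log2 change of 0.48 (SE 0.11, adjusted p = 0.059) and ZMAT3 one of 0.55 (SE 0.13, adjusted p = 0.065). After normexp correction with renewed normalization, C646 in HCT116 called 1 of 8, against 2.6% of all genes.

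In PANC1, ICG-001 called 0 of 8 members, against 2.39% of all genes. GADD45A had a log2 change of 1.28 there (SE 0.28, adjusted p = 0.060), of the size seen in HCT116, and was the 1 member with an unadjusted p under 0.05. C646 in PANC1 called 1 of 8, against 7.76%, and ZMAT3 rose by 0.54 (SE 0.13, adjusted p = 0.045). This call was lost after normexp correction with renewed normalization (adjusted p = 0.070) and without the filter (adjusted p = 0.068). There 6.33% and 4.3% of all genes were called. With a variance trend in the fit, 4 further effects were called. These were GADD45A with ICG-001 in PANC1 (adjusted p = 0.029, against 2.87% of all genes) and ZMAT3 with ICG-001 in HCT116 (adjusted p = 0.041, against 14.3%). The others were BAX (adjusted p = 0.037) and ZMAT3 (adjusted p = 0.047) with C646 in HCT116, against 3.54%.

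The lines were then compared through their responses, which is the comparison that p53 status bears on. Neither drug gave a called difference for any member: 0 of 8 with ICG-001, where 0.256% of all genes were called, and 0 of 8 with C646, where 0.0193% were. BAX was the 1 member with an unadjusted p under 0.05 for each drug, HCT116 over PANC1 by 0.47 with ICG-001 (SE 0.15, adjusted p = 0.24) and by 0.49 with C646 (SE 0.15, adjusted p = 0.51). GADD45A differed by 0.12 (SE 0.39, adjusted p = 0.94) and -0.35 (SE 0.39, adjusted p = 0.91), each smaller than its SE.

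Ratio against ratio, 1 of 7 members passed 1.5-fold between the lines with ICG-001 at 12 h (GADD45A, higher in HCT116 by 0.75, where 4.88% of all genes passed). At 96 h, 2 of 7 did (BAX by 0.75 and ZMAT3 by 0.63, both higher in HCT116, against 9.8%). With C646 it was 2 of 7 at 12 h (TP53INP1 at -0.63 and GADD45A at -0.61, both lower in HCT116, against 3.17%) and 0 of 7 at 96 h, against 2.53%. The GADD45A difference with ICG-001 was 0.75 at 12 h but -0.50 at 96 h, and with C646 -0.61 and -0.08, so its side changed with time under ICG-001. Each BAX difference had HCT116 above PANC1.

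The counts moved when background correction and normalization were changed together. After normexp correction with an offset of 16 and quantile normalization within a line, 16 ratios of HCT116 passed 1.5-fold in place of 6, and 11 differences between lines in place of 5, while PANC1 stayed at 3. The share of all genes past the fold was not computed after this correction, so these counts are not read as particular to the members. In HCT116 the BAX ratio for ICG-001 at 96 h became 1.04, and the BAX ratios for C646 became 0.67 and 0.95. FAS at 96 h passed with both drugs, at 0.83 and 0.60. TP53INP1 passed with ICG-001 at both times, at -0.70 and -0.69, and RRM2B with C646 at 12 h, at -0.63. TP53I3 passed at 0.59 for ICG-001 at 96 h, and at -0.71 and 0.79 for C646 at 12 and 96 h. No member reversed its direction where it had passed the fold.

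A further 38 p53 targets, listed by role, gave the rest of the pathway. Of 35 fitted with ICG-001 in HCT116, 6 rose and 3 fell, with a median log2 change of 0.08 against 0.0040 over all genes, of which 14.1% were called in either direction. Those that rose were CDKN1A (p21), TNFRSF10B and TNFRSF10A (death receptors for TRAIL), PMAIP1 (the BH3-only protein NOXA), AEN (a nuclease of apoptosis) and SESN2 (a sestrin that restrains mTORC1), by 0.40 to 1.12. CCNG1 (cyclin G1), APAF1 (the apoptosome scaffold) and PERP (a membrane protein of desmosomes) fell by 0.88, 0.58 and 0.39. Apart from CDKN1A, these genes are named after their values were seen.

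By role, 1 of 6 arrest genes rose and 1 fell, 4 of 12 death genes rose and 2 fell, 1 of 12 metabolism and stress genes rose and none fell, and 0 of 5 repair genes were called, each to be read against the same 14.1%. With C646 in HCT116, 1 of 35 rose (AEN) and none fell, against 3.66% of all genes called. In PANC1, 1 of 35 rose with ICG-001 (SESN2, against 2.39%) and 0 were called with C646, against 7.76%. For neither drug was any of the 35 called between the lines, where 0.256% of all genes were with ICG-001 and 0.0193% with C646. These lists are small, and none of their counts is read as particular to p53 targets.

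Of these genes the naming rule, at least 1.5-fold the same way in 3 of 4 drug comparisons of a line, took CDKN1A and GDF15 upward in HCT116 and SFN and GDF15 downward in PANC1. In HCT116 the log2 ratios of CDKN1A for ICG-001 were 1.06 at 12 h and 1.12 at 96 h, and those for C646 were 0.13 and 1.37. In PANC1 they were 0.24, 0.12, 0.87 and 0.23 in the same order, so C646 at 12 h passed the fold there. GDF15, a secreted stress cytokine, had 1.75, 2.19, -1.07 and 0.83 in the same order in HCT116, and 1.61, -0.61, -0.79 and -0.998 in PANC1. SFN, the 14-3-3 sigma protein that restrains mitotic entry, had -0.16, -0.81, -1.13 and -0.59 in PANC1, and 0.40, -0.07, 0.18 and 0.81 in HCT116.

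Of 11 regulators of p53, 2 fell and none rose with ICG-001 in HCT116, against 14.1% of all genes called. These were DAXX (a binding partner of MDM2) by 0.46 and KAT2B (the acetyltransferase PCAF) by 0.38. In PANC1 CREBBP, which codes for CBP, rose by 0.46 with ICG-001 (1 of 11, against 2.39%), and with C646 DAXX fell by 0.46 and EP300, which codes for p300, fell by 0.37 (2 of 11, against 7.76%). These genes too are named after their values were seen.

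**Figure D4:**
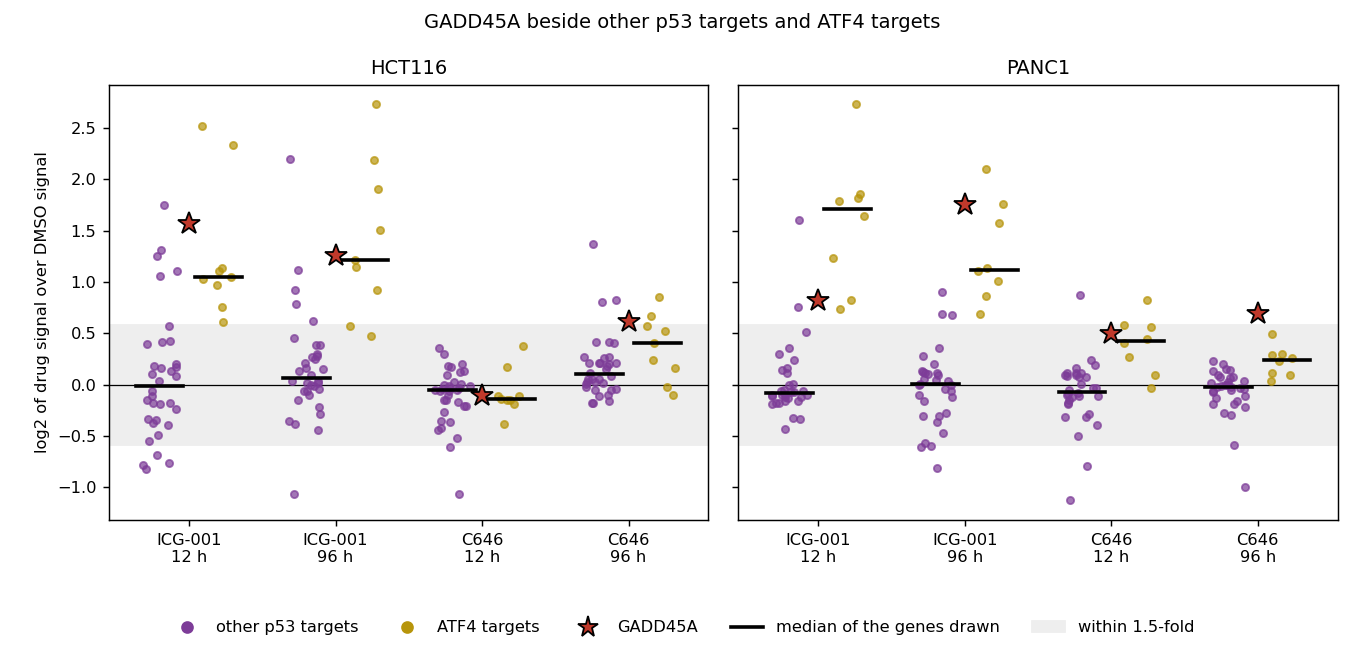
Log2 ratio over DMSO of GADD45A (stars), of other p53 targets (purple, 34 genes in HCT116 and 32 in PANC1) and of ATF4 targets (yellow, 9 and 8 genes), for the genes above the limit in every comparison of a line, with black bars at the medians and the grey band within 1.5-fold. With ICG-001 the stars lie within the range of the ATF4 targets in both lines and above the median of the other p53 targets. They also lie within the range of the other p53 targets in HCT116 and in PANC1 at 12 h, where GDF15 is higher (1.75, 2.19 and 1.61). In PANC1 at 96 h the star (1.75) is above the highest of them, PMAIP1 (0.90). In PANC1 at 12 h the ICG-001 star (0.82) is near the low end of the ATF4 targets. With C646 at 96 h in PANC1 the star (0.69) lies above every ATF4 target drawn, the highest being TRIB3 (0.49).

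GADD45A is known to be induced without p53 as well, for instance downstream of ATF4, the transcription factor of the integrated stress response, so ATF4 targets were counted beside it. These targets, like the other lists, were chosen with earlier results of these data known, so their counts are a description and not a test. With ICG-001 at 12 h, 9 of 10 were at least 1.5-fold higher in HCT116 (median log2 ratio 1.04) and 10 of 11 in PANC1 (median 1.23), where 4.94% and 2.23% of all genes were. The later time gave 7 of 10 (median 1.18) and 9 of 11 (median 1.00), against 5.28% and 4.02%. With C646 the counts were 0 of 10 (-0.13) and 2 of 9 (0.41) in HCT116, against 2.68% and 1.95% of all genes, and 1 of 8 (0.42) and 0 of 10 (0.17) in PANC1, against 4.13% and 2.92%. GADD45A was at 1.57, 1.25, -0.12 and 0.61 in HCT116 and at 0.82, 1.75, 0.50 and 0.69 in PANC1 in the same order of comparisons.

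In the fit by line, 8 of 11 ATF4 targets rose with ICG-001 in HCT116, where 14.1% of all genes were called, and 7 of 11 in PANC1, where 2.39% were. None fell, and 0 were called with C646 in either line, against 3.66% and 7.76%. The rule named TRIB3 (a pseudokinase of the stress response) and DDIT3 (the factor CHOP) in HCT116, with ICG-001 effects of 2.53 (SE 0.17, adjusted p = 0.0011) and 2.21 (SE 0.27, adjusted p = 0.0047), and PHGDH (an enzyme of serine synthesis) in PANC1, with 1.68 (SE 0.16, adjusted p = 0.012). SESN2, TNFRSF10B and PMAIP1 of the p53 list are also known as targets of the ATF4 and CHOP axis. The ATF4 list moved in PANC1 with DMSO alone too. There 6 of 10 were at least 1.5-fold higher at 96 h than at 12 h, with a median of 0.83, while GADD45A had 0.04. Of all genes, 1.34% passed the fold in either direction. In HCT116 with DMSO, 1 of 10 was higher and 2 were lower (median -0.21), against 3.21%, and GADD45A had 0.49. The part of this list in the GADD45A result was not tested.

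For GADD45A, ZMAT3 and TP53INP1, which passed the fold against DMSO in a line, the genes most alike over the 12 columns were sought among 11529 genes above the limit in all of them, by Pearson's r of log2 signal centred within each line. GADD45A was followed most closely by KBTBD9 (0.964), KLHL12 (0.953) and TRIM8 (0.951). ZMAT3 was closest to LRAP (0.981), ZNF664 (0.961) and C3orf34 (0.960), under the names the array uses. TP53INP1 was closest to PINK1 (0.976), SLC27A1 (0.967) and DBP (0.966). None of these was a member or a gene of the p53 lists. The values describe 12 columns that share lines, times and normalization, and the highest of so many is high by selection.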

How the data were processed

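Per the labels and the study's methods, RNA was extracted with Trizol, labelled and hybridised to Illumina HumanHT-12 v4 BeadChips, and the authors quantile normalized the intensity in GenomeStudio, left background in, and averaged 2 or 3 replicate arrays, so the deposited value is 1 linear signal intensity per gene and group. Probe identities, single arrays and detection p-values were not used here, and the number of arrays limits the precision. Signals were converted to log2 and subtracted within a line. Groups were taken from sample labels. limma 3.58.1 in R 4.3.3 (lmFit, eBayes, Benjamini-Hochberg adjustment) gave all adjusted p values. Python 3.11.15 with numpy 2.4.6, pandas 2.3.3 and matplotlib 3.10.9 was used, and the procedure was tested on simulated data. The p53 consensus was searched in RefSeq promoters (GRCh38.p14). The members, the lists and the naming rule were chosen with earlier results of these data known. All 9 members were named, other list genes by the 1.5-fold rule above (at most 4 for each line and direction) or, where the text says so, after their values were seen, and for alike genes the 3 highest, of which those of BAX are not reported here. Alternatives were thresholds of 1.2-fold and 2-fold, no filter, a limit at 5 SD, normexp (offset 16), centred ratios, quantile normalization over 12 columns, a variance trend, and fits without each line and time pair.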

Additional observations from a re-analysis of the deposited data

How the results depend on the processing

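Counts of members past the fold depended on the threshold. The share of all genes past the fold was computed at the main setting only. The fold counts below therefore have no such share beside them and are not read as particular to the members. At 1.2-fold the counts were 20 in HCT116 and 7 in PANC1 against DMSO, in place of 6 and 3. The counts were 4 between DMSO columns and 15 between the lines' responses, in place of 2 and 5. At 2-fold they were 2 in HCT116, 1 in PANC1, 2 for ICG-001 against C646 (in place of 5), 0 between DMSO columns and 0 between lines. Normexp correction followed by quantile normalization within a line, changed together, gave 16 in HCT116 and 11 between lines. Centring left 1 between DMSO columns, since RRM2B lay at the threshold. Quantile normalization over all 12 columns gave 5 in PANC1, adding ZMAT3 with C646 at 0.66 at both times, while HCT116 stayed at 6 but lost ZMAT3 with C646 at 12 h (0.57) and gained BAX with C646 at 96 h (0.59). The limma calls by line went from 3 to 7 with a variance trend and to 1 without a filter on dim genes, where more genes were adjusted over. With the trend, the shares of all genes called were 14.3% (ICG-001) and 3.54% (C646) in HCT116 and 2.87% and 7.84% in PANC1. Without the filter they were 7.45%, 1.73%, 0.943% and 4.3% in the same order. The 3 calls over line and time pairs fell to 1 without the HCT116 12 h columns, and the cause was not tested. The shares of all genes called in that fit were 4.51% with ICG-001, 5.88% with C646 and 1.76% between the drugs. No result reversed. The averaged columns, 7 or 8 genes above the limit and signals near background limit what these counts can show.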
